A study of Mus musculus with 37 samples.

Results

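The genes described here are 34 members of the unfolded protein response and of the ATF4 response that overlaps with it, measured in astrocytes from newborn mice. They were taken from a named list with no threshold on measured values, and the list was chosen with earlier results of these data known. Each gene is described by 1 probe set, that with the highest mean over all 37 arrays, and all 34 genes were found and passed the filter on low values. They are 34 of the 12139 genes with a tested probe set, and their probe sets are 34 of 25579 tested. The list holds 8 stress sensors and transcription factors, 13 chaperones and folding factors of the endoplasmic reticulum (ER), 4 genes of ER-associated degradation and 9 targets of ATF4 and CHOP.

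RNA came from primary astrocyte cultures that had been stably transfected with a plasmid carrying Cdca7l or with the same vector left empty. The groups were B6 (C57BL/6J) males with Cdca7l (5 arrays) and with vector (5), B6 females with Cdca7l (4) and with vector (5), 129 (129S4/SvJae) males with Cdca7l (5) and with vector (5), and 129 females with Cdca7l (4) and with vector (4). Every culture, the vector controls included, went through nucleofection and stable transfection, so no untransfected cells were compared. The labels give each culture a clone label such as 3(1), called the clone number here. Most clone numbers occur once with Cdca7l and once with vector within a strain and sex. The number before the parentheses recurs within some groups: 129 males with vector were 3(1), 3(2), 3(3), 5(1) and 5(2). The main tests treated all arrays as independent, and the replicate blocks used further on took the full label. Neither accounts for a shared first number, and the labels do not say what it marks. The values are deposited log2 expression levels of a one-colour array.

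The unfolded protein response is started by the ER membrane sensors Ire1 (Ern1), Perk (Eif2ak3) and Atf6 when unfolded proteins build up in the ER. Ire1 splices the mRNA of the transcription factor Xbp1, Atf6 is cut to release its own transcription factor part, and both act on chaperone and degradation genes. Perk phosphorylates the translation factor eIF2α, which slows protein synthesis in general and favours translation of the transcription factor Atf4. Atf4 is also raised through other eIF2α kinases, for example when amino acids are scarce, and it drives genes of amino acid synthesis and uptake together with the transcription factor CHOP (Ddit3). Splicing, cleavage and phosphorylation do not change the total mRNA that a probe set reads, so the values below are mRNA levels alone.

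The promoters of the members were read to see which carry the elements known for these responses. Promoter windows from RefSeq (GRCm38.p6), each reaching from 250 bases before to 50 bases after an annotated gene start, were found for 32 of the 34 members, 35 windows in all. Both strands were searched for the ER stress response element ERSE, spelled CCAAT and CCACG with 9 bases between them. It matched in 8 member genes (Hspa5, Hsp90b1, Calr, Canx, Pdia6, Dnajc3, Creld2 and Syvn1), while it was found in 0.119% of all 32851 windows. The related ERSE-II, ATTGG and CCACG with 1 base between them, matched in Dnajb11 and Herpud1, and in 0.0365% of all windows. The core TGATGNAA of the element bound by C/EBP and ATF factors matched in 6 member genes (Atf3, Herpud1, Trib3, Asns, Chac1 and Vldlr), against 3.97% of all windows. The core TGACGTGG, known from XBP1 and ATF6 binding, matched in 0 members and in 0.676% of all windows. A match only describes the letters of a window, and these elements do not overlap each other in the windows printed here.

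The 250 bases before the gene start follow for 6 members, in lower case with the matched elements in capitals. Asns, Chac1 and Vldlr hold the C/EBP and ATF core and were chosen for printing because their mRNA levels moved together across cultures, as described further on. This choice therefore says nothing on a link between the core and those levels. The other holders of the core are described there too. Among them, Trib3 also moved with Asns, but its match begins 14 bases after the gene start, outside the bases printed. The Asns match begins 23 bases before the gene start and that of Chac1 193 bases before it. That of Vldlr begins 200 bases before the later of its annotated starts. The window of the earlier Vldlr start, chr19:27216234-27216533, held 0 matches to any of the elements. The strand, position and sequence of each printed window are as follows.
Asns (chr6:7693210-7693459, minus strand): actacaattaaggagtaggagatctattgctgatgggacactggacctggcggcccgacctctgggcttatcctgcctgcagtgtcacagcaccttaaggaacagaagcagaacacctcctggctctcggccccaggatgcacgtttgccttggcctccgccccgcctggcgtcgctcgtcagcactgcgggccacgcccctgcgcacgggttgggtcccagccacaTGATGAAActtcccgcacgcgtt
Chac1 (chr2:119350992-119351241, plus strand): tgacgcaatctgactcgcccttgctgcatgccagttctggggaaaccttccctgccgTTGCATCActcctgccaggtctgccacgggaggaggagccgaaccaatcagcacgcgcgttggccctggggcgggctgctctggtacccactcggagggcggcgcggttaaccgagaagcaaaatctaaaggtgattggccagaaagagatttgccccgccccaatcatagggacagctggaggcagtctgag
Vldlr (chr19:27216770-27217019, plus strand): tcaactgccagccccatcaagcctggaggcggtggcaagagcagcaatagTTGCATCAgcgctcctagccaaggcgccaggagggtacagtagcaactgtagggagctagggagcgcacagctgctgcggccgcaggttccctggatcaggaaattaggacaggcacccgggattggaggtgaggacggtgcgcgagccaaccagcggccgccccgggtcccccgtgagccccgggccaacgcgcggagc
Hspa5 and Creld2 are shown for the ERSE, which begins 65 bases before the gene start of Hspa5 and 126 bases before that of Creld2, where it lies on the other strand. Herpud1 is shown because it holds both kinds of element, the C/EBP and ATF core first and the ERSE-II after it.
Hspa5 (chr2:34771840-34772089, plus strand): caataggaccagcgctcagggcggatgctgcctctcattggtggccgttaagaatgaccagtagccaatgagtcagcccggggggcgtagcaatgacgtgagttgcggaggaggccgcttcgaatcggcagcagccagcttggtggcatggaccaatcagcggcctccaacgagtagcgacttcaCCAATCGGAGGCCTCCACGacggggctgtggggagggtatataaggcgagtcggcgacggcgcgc
Creld2 (chr15:88819396-88819645, plus strand): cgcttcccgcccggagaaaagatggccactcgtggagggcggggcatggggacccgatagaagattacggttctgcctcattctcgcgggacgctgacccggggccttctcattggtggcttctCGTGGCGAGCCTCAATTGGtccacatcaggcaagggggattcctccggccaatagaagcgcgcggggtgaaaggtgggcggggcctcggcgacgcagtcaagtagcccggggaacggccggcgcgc
Herpud1 (chr8:94386179-94386428, plus strand): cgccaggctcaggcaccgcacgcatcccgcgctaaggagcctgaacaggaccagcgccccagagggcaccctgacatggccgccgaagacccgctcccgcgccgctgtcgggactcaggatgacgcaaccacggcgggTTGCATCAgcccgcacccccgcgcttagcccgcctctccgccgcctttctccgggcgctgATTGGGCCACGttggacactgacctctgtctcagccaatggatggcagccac

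Some arrays stood apart before any comparison. The level below which a value was taken as background was 3.189, the median of the table. The vector array 1(3) of 129 females had an upper quartile of 8.36, against 9.03 to 9.51 on the others. The array labelled B6 female vector 5.1(1) read 2.40 for Xist and 11.9 for the Y-linked Eif2s3y, against its label. It was kept among the B6 females, except where a result is given without it. The mean level of 10 astrocyte markers was 9.05 to 10.4 on both clones numbered 4(1) and 2(1) of 129 females, with either plasmid, and 11.0 or more on every other array. The same 4 arrays had the highest mean levels of 14 G2/M genes, 10.1 to 11.1. The 129 male clones 3(1) and 5(1), with either plasmid, had the highest mean levels of 7 fibroblast markers, 11.8 to 11.9. Of the astrocyte markers, 8 of 10 exceeded background on every array. Of 14 microglial markers, 2 exceeded background on every array, and Cx3cr1, Itgam and Trem2 never did. The mean level of the microglial markers was 7.90 and 6.93 on 129 male vector 5(2) and 3(2), and 6.60 and 5.46 on B6 female vector 5.1(1) and 2.1(1). It was 5.24 on B6 male Cdca7l 2(2), against medians of 3.30 on B6 arrays and 3.55 on 129 arrays. In cultures measured as a whole, fewer cells of a type and less RNA per cell cannot be told apart.

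Cdca7l left the mRNA of this response without a detected change. Cdca7l itself, measured by its own probe set, differed by 4.61 ± 0.48 on the log2 scale (SE, averaged over strain and sex, limma adjusted p = 1.25e-06), with 10.2 to 14.4 on Cdca7l arrays and 4.12 to 10.4 on vector arrays. None of the 34 members passed the test in that comparison, where 0.00782% of all probe sets did, and 0 members had an unadjusted p under 0.05. In each of the 4 strain and sex groups taken alone, 0 members passed, and the share of all probe sets was 0% in B6 males, 0% in B6 females, 0% in 129 males and 0% in 129 females. Cdca7l itself did not pass in any of these single groups either (limma adjusted p = 0.157 to 1), and the 95% intervals of only 19 to 21 of 34 members lay within a 2-fold change there, so these counts of 0 say little. The members' differences had a median of -0.01, against 0.02 over all probe sets tested, and 17 were positive and 17 negative. For 31 of 34 members the 95% interval of the averaged difference lay within 1 log2 unit of 0, that is, within a 2-fold change either way; the exceptions were Eif2ak3, Trib3 and Chac1.

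Among the sensors and transcription factors, the mRNA of Eif2ak3, which encodes Perk, had the widest spread. In B6 males it read 8.90, 8.87, 6.57, 3.07 and 8.96 with Cdca7l, and 8.03, 9.09, 8.71, 8.97 and 8.75 with vector. The groups overlapped, and 2 of the 5 Cdca7l arrays were low, 1 of them below background. The difference in B6 males was -1.43 ± 0.79 (SE, limma adjusted p = 1), and it ranged from -1.85 to -0.38 when 1 array was left out in turn. Averaged over strain and sex it was -0.52 ± 0.41. Atf4 averaged 12.8 with Cdca7l and 12.9 with vector, a difference of -0.06 ± 0.18. Ddit3, which encodes CHOP, differed by 0.03 ± 0.20, Xbp1 by -0.14 ± 0.20 and Atf6 by 0.07 ± 0.20.

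The chaperones were close in level with either plasmid. Hspa5, which encodes the main ER chaperone BiP, ran from 13.0 over a median of 13.5 to 13.9 on the 18 Cdca7l arrays, and from 13.1 over 13.5 to 13.9 on the 19 vector arrays. Its difference was 0.05 ± 0.08 (SE), with a 95% interval of -0.12 to 0.21. The lectin chaperones calreticulin (Calr, 0.00 ± 0.06) and calnexin (Canx, 0.04 ± 0.05) and the ER form of Hsp90 (Hsp90b1, 0.06 ± 0.11) had differences no larger than their errors. Pdia4, a disulfide isomerase, read low on this array platform, with a mean of 4.50, so its difference of 0.03 ± 0.32 has little precision. In ER-associated degradation, Herpud1, part of the retrotranslocation complex, differed by -0.22 ± 0.15.

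The ATF4 targets included the smallest unadjusted p of the list, that of Asns, asparagine synthetase. On the 18 Cdca7l arrays Asns ran from 10.7 over a median of 11.4 to 13.4, and on the 19 vector arrays from 10.8 over 12.1 to 13.1. Both sides overlapped almost fully, although 13 of 18 Cdca7l arrays lay below the vector median. The difference was -0.34 ± 0.23 (limma unadjusted p = 0.148, adjusted p = 0.999). It was -0.32 in B6 males, -0.35 in B6 females, -0.53 in 129 males and -0.18 in 129 females. Of 35 further ATF4 targets tested, 0 passed, and their median difference was -0.06.

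The effect of Cdca7l was also compared between the sexes and between the strains. None of the 34 members passed for the effect in males minus that in females, nor for the effect in B6 minus that in 129, with 0% of all probe sets passing in either. The plot of differences shows the 3 averaged comparisons for all members.

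**Figure D1:**
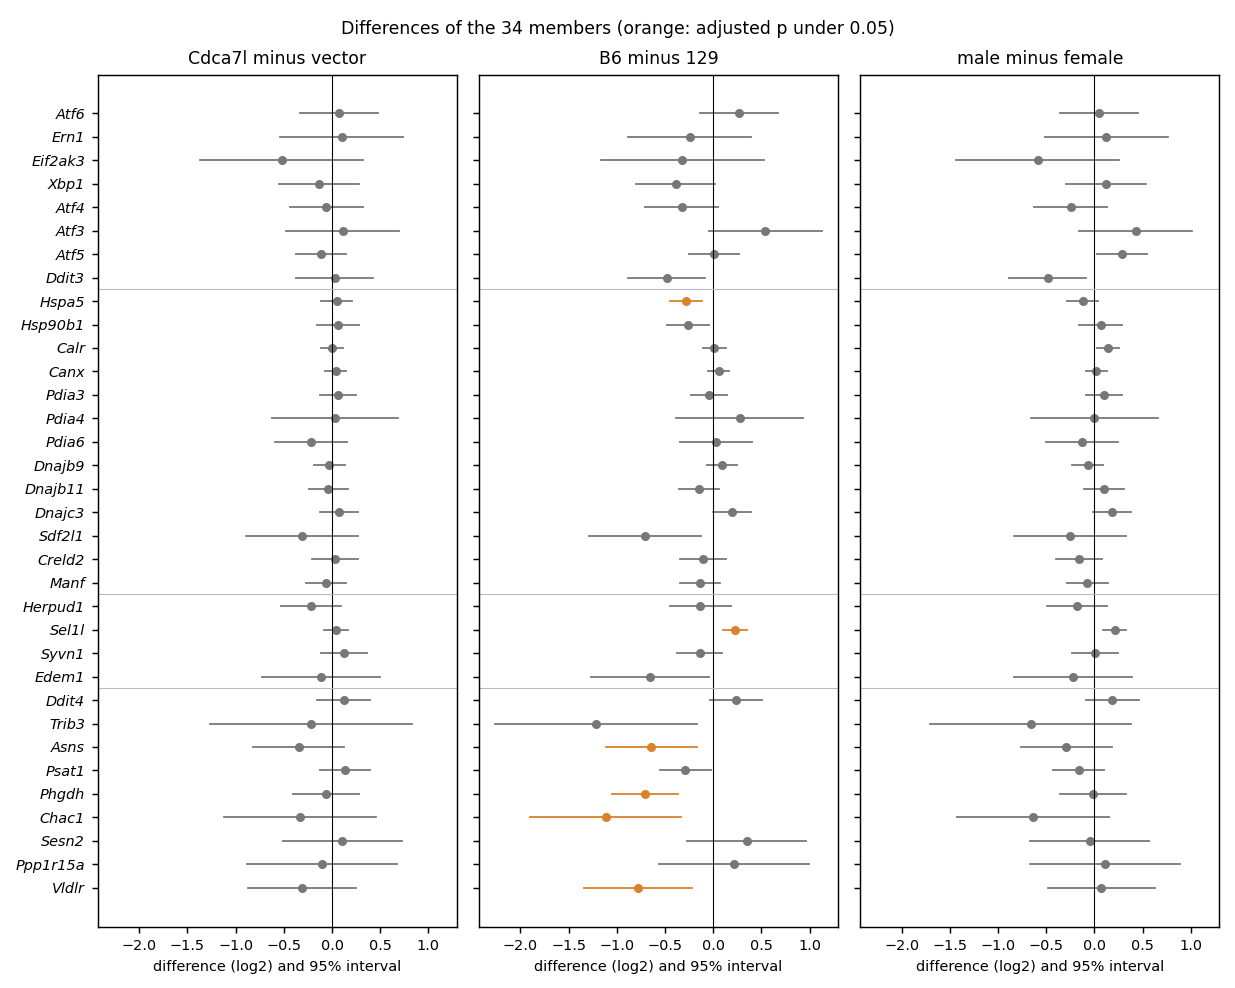
Differences of the 34 members on the log2 scale (dots) with 95% intervals (lines) for Cdca7l minus vector, B6 minus 129 and male minus female, each averaged over the other factors; horizontal lines part sensors and transcription factors, chaperones, degradation genes and ATF4 and CHOP targets. The 6 orange members passed at an adjusted p under 0.05, all of them between the strains.

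Between the strains, single members passed the test. Lower in B6 than in 129 were Phgdh, Asns, Chac1 and Vldlr among the ATF4 targets, and Hspa5 among the chaperones, while Sel1l was higher in B6. Thus 6 of 34 members passed between B6 and 129 (17.6%), against 25.2% of all probe sets. In the direction lower in B6 these were 5 (14.7%, against 10.6% of all probe sets), and in the direction higher in B6 1 (2.94%, against 14.6%). The members' median difference was -0.14, against -0.0047 over all probe sets tested. Without the 4 arrays of the 129 female clones 4(1) and 2(1), 0 members passed, with limma adjusted p-values for these 6 of 0.0797 to 0.475. Without the 4 arrays of the 129 male clones 3(1) and 5(1), only Sel1l and Phgdh passed.

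Phgdh, the first enzyme of serine synthesis, had the smallest adjusted p. On the 19 B6 arrays it ran from 11.2 over a median of 12.3 to 12.8, and on the 18 arrays of 129 from 11.5 over 13.1 to 13.8. The strains overlapped, with 12 of the 129 arrays above the highest B6 array. The difference was -0.71 ± 0.17 on the log2 scale (SE, limma adjusted p = 0.00274), a 1.63-fold lower level in B6. It was negative in all 4 pairs of matched groups, from -0.93 in vector females to -0.30 in vector males. All 4 probe sets of Phgdh were lower in B6, by -0.71 to -1.09, each with an adjusted p of at most 0.0107. Without the 129 female clones 4(1) and 2(1) the difference was -0.39 ± 0.16 (limma adjusted p = 0.0952).

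Asns, Chac1, a glutathione-degrading enzyme induced by the Perk branch, and Vldlr, a lipoprotein receptor whose mRNA is raised by ATF4, followed Phgdh in direction. Asns read 12.8, 11.2, 11.2, 11.0 and 10.7 in B6 males with Cdca7l, against 12.0, 11.4, 11.1, 11.6 and 12.1 in 129 males with Cdca7l. In females with Cdca7l it read 13.0, 11.0, 10.7 and 10.8 in B6, against 13.0, 11.3, 13.4 and 11.9 in 129. The strains overlapped: 1 B6 male culture lay above all 129 males with Cdca7l, and 1 B6 female culture lay among the 129 females. The averaged strain difference of Asns was -0.64 ± 0.23 (SE, limma adjusted p = 0.0398), and its second probe set gave -0.53 ± 0.25 (adjusted p = 0.114). The call of Asns was lost under 24 of 47 alternatives, 19 of them the removal of a single array.

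Chac1 ran from 4.36 over a median of 6.31 to 9.78 on B6 arrays, and from 6.27 over 7.35 to 9.65 on 129 arrays. The highest value of all was in B6, the vector culture 2.1(1), while 8 B6 arrays lay below the lowest of 129. Its difference was -1.12 ± 0.39 (SE, limma adjusted p = 0.0327), a 2.17-fold lower level in B6. Vldlr ran from 8.91 over 10.5 to 12.2 on B6 arrays and from 9.76 over 11.8 to 12.4 on 129 arrays, and differed by -0.78 ± 0.27 (SE, limma adjusted p = 0.0357). The other probe sets of Vldlr gave -1.28, -0.90, -1.09, -0.97 and -0.24, with limma adjusted p-values of 0.0199, 0.0279, 0.131, 0.231 and 0.545. Single-array removals ended the call of Vldlr in 14 cases and that of Chac1 in 8. Trib3, a pseudokinase that ATF4 and CHOP induce and that restrains them, had a difference of similar size, -1.21 ± 0.51, and did not pass (limma adjusted p = 0.0788). With the clone number as a random replicate block, Asns, Chac1 and Vldlr no longer passed and 3 members did, Hspa5, Sel1l and Phgdh.

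The remaining ATF4 and CHOP targets did not move as one. Psat1, the next enzyme of serine synthesis after Phgdh, differed by -0.29 ± 0.13 (limma adjusted p = 0.0973). Ddit4, an inhibitor of mTORC1, differed by 0.24 ± 0.13, and Sesn2, another such inhibitor, by 0.35 ± 0.30. Ppp1r15a, the phosphatase subunit that reverses eIF2α phosphorylation, did not pass (0.22 ± 0.38, limma adjusted p = 0.705); its strain differences were -0.46 and -0.50 in the female pairs and 0.53 and 1.30 in the male pairs.

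Hspa5 differed by little but with small error. It ran from 13.0 over a median of 13.3 to 13.7 on B6 arrays and from 13.2 over 13.7 to 13.9 on 129 arrays, with 18 of 19 B6 arrays below the 129 median. The difference was -0.28 ± 0.08 (SE, limma adjusted p = 0.0106), 1.22-fold lower in B6, and negative in all 4 pairs of matched groups. A second probe set gave -0.27 ± 0.08 (adjusted p = 0.0131). Of the other chaperones, Hsp90b1 (-0.26 ± 0.11, adjusted p = 0.075) and Sdf2l1, a partner of BiP (-0.71 ± 0.29, adjusted p = 0.0643), were negative in all 4 pairs as well, without passing. The main probe set of Dnajc3, an ER co-chaperone, did not pass (0.19 ± 0.10, adjusted p = 0.139), whereas 3 of its other probe sets were higher in B6, by 0.55, 1.14 and 1.17.

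Sel1l, the adaptor of the Hrd1 ubiquitin ligase in ER-associated degradation, was the 1 member whose main probe set passed the test as higher in B6. B6 females read 12.8, 13.0, 13.1 and 13.0 with Cdca7l, against 12.4, 12.9, 12.5 and 12.9 in 129 females with Cdca7l. With vector, B6 females read 13.0, 13.1, 13.2, 13.1 and 12.9, against 12.2, 12.6, 12.5 and 12.6 in 129 females. Among the females 6 of 8 arrays of 129 lay below every B6 array. The averaged difference was 0.23 ± 0.06 (SE, limma adjusted p = 0.00602). It was 0.29 and 0.59 in the female pairs and 0.01 and 0.01 in the male pairs. With the mean of all probe sets of a gene, Sel1l did not pass (limma adjusted p = 0.192). The 7 members that then passed were Hspa5, Hsp90b1, Canx, Dnajc3, Edem1, Phgdh and Chac1. A second probe set of Canx was also higher in B6, by 0.44 ± 0.11 (limma adjusted p = 0.0054). A comparison added after these values were seen, of the strain difference in males minus that in females, gave -0.43 ± 0.12 for Sel1l (limma adjusted p = 0.133), with 0 members passing and 0% of all probe sets, 0% higher and 0% lower.

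**Figure D2:**
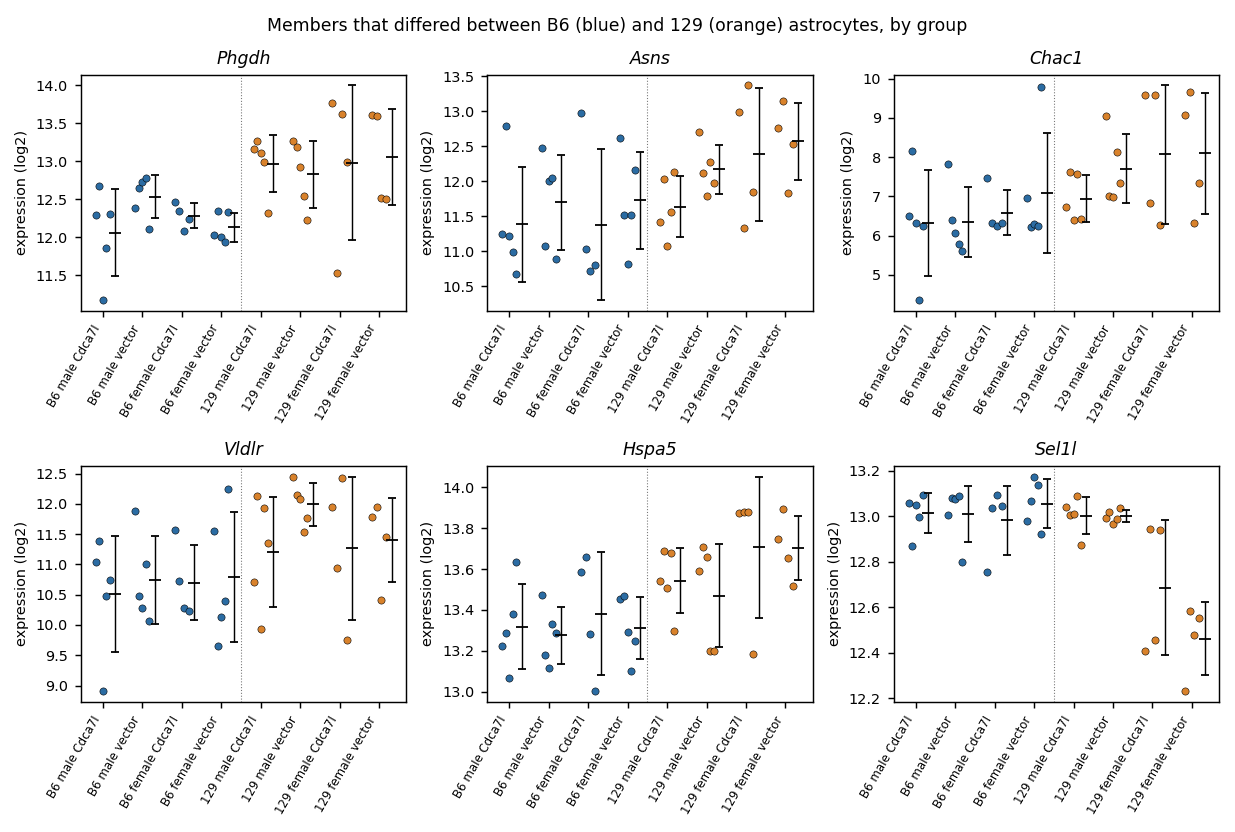
Expression on the log2 scale (vertical axis) of the 6 members that differed between B6 (blue) and 129 (orange), by group; each dot is 1 array, and the bar beside the dots gives the group mean ± SD. The 129 female arrays at 13.6 to 13.8 for Phgdh are clones 4(1) and 2(1) with either plasmid, and the 6 lowest values of Sel1l are all in 129 females.

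Of the sensors and transcription factors, 0 of 8 passed between the strains, where 25.2% of all probe sets did. Ddit3 averaged 10.7 in B6 and 11.2 in 129 and differed by -0.48 ± 0.20 (limma adjusted p = 0.0685). Atf4 differed by -0.33 ± 0.18, Xbp1 by -0.39 ± 0.20, Ern1 by -0.25 ± 0.31, Eif2ak3 by -0.32 ± 0.41 and Atf3 by 0.54 ± 0.29. For Xbp1 no B6 array exceeded the 129 median, and 10 of the 129 arrays lay above the highest B6 array. Edem1, which directs misfolded glycoproteins to degradation, differed by -0.66 ± 0.30 (limma adjusted p = 0.102). Its other probe set, with a mean of 8.11 against 8.32, gave -1.51 ± 0.53 (limma adjusted p = 0.0362). The differences of all members that did not pass ran from -1.21 for Trib3 to 0.54 for Atf3.

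Further genes of the same pathways were read from lists. Of 35 other ATF4 targets tested, 15 were lower in B6 and 0 higher, with a median difference of -0.38, against -0.0047 over all probe sets. Of all probe sets, 10.6% were lower and 14.6% higher in B6. Nupr1, a stress-induced transcriptional regulator, averaged 12.2 in B6 and 13.5 in 129 and differed by -1.36 ± 0.22 (limma adjusted p = 3.67e-05). Slc7a5, the light chain of a transporter of large neutral amino acids, differed by -0.74 ± 0.17, and the isoleucyl and leucyl tRNA synthetases Iars and Lars by -0.55 ± 0.13 and -0.38 ± 0.09. The 15 became 3 without the 129 female clones 4(1) and 2(1), and 8 without the 129 male clones 3(1) and 5(1) or with a random replicate block.

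Beside the counts that follow, 14.6% of all probe sets were higher and 10.6% lower in B6. Of 37 other ER folding and entry genes, 4 were higher in B6, among them Dnajc1 (0.37 ± 0.10) and Stt3b (0.25 ± 0.08), and 4 lower, among them Hyou1, an exchange factor for BiP (-0.53 ± 0.18). Of 22 other degradation genes, 4 were higher in B6 and 0 lower: Erlin2 by 0.75 ± 0.12, Os9 by 0.49 ± 0.15, Edem2 by 0.45 ± 0.15 and Faf2 by 0.23 ± 0.08. Of 16 other stress sensors and regulators 1 passed, the eIF2α kinase Eif2ak1 (0.49 ± 0.19). Of 17 cytosolic heat shock genes 1 was higher in B6, Hspb8 by 0.18 ± 0.06, and 4 lower, among them Hspb1 by -1.23 ± 0.39 and Stip1 by -0.41 ± 0.12.

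Markers of cell types and of the cell cycle differed between the strains too, where 14.6% of all probe sets were higher and 10.6% lower in B6. Of 7 fibroblast markers, 4 were lower in B6 and 0 higher, and their mean level ran from 5.30 to 7.13 on B6 arrays and from 6.53 to 11.9 on 129 arrays. Of 10 astrocyte markers, 4 were higher in B6, with mean levels of 11.1 to 12.9 on B6 arrays and 9.05 to 12.6 on 129 arrays. Of 14 G2/M genes, 3 were lower in B6, with mean levels of 5.05 to 8.72 on B6 arrays and 4.99 to 11.1 on 129 arrays. Of 9 microglial markers tested, 0 passed. Of 8 oligodendrocyte lineage markers found, 2 were higher in B6 and 0 lower. Of 8 neuronal markers found, 2 were higher and 1 lower, and of 6 endothelial markers 0 were higher and 1 lower. The part of all these markers in the strain differences of the members was not tested.

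Between the sexes 0 of 34 members passed, where 0.321% of all probe sets did (0.27% of all were higher and 0.0508% lower in males). Sel1l averaged 13.0 in males and 12.8 in females, a difference of 0.21 ± 0.06 (SE, limma adjusted p = 0.0956); with a trended and robust variance prior it passed. Ddit3 differed by -0.49 ± 0.20 (limma adjusted p = 0.203). Of the male arrays, 18 of 20 lay below the female median for Ddit3. Calr differed by 0.14 ± 0.06 and Atf5, a transcription factor related to ATF4, by 0.29 ± 0.13, with adjusted p of 0.207 and 0.242. The members' median was -0.01, against 0.01 over all probe sets. For 30 of 34 members the 95% interval lay within a 2-fold change either way, the exceptions being Eif2ak3, Atf3, Trib3 and Chac1.

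Within the groups, members also varied between cultures. To follow this, each array's deviation from its group mean was taken, and slopes on Hspa5 and on Asns were fitted across all probe sets. Hspa5 was chosen as the main ER chaperone and Asns as an ATF4 target. Neither stands for an arm as a whole: Atf4 and Ddit3 passed on Hspa5 and not on Asns. The chaperones Pdia6, Dnajb11 and Manf passed on Asns and not on Hspa5, but their correlations ranked much alike on both. Among all probe sets, their r stood at percentiles 95.2, 89.4 and 90.3 on Hspa5 and 97.4, 88.3 and 89.9 on Asns. More of all probe sets rose with Asns (18.3%) than with Hspa5 (4.09%), and differences between slopes were not tested. Asns and Hspa5 themselves were only weakly related within groups (r = 0.23 over 37 arrays). Arrays that share a clone number are not independent of each other. Over all 561 pairs of members the median correlation of deviations was 0.15.

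With Hspa5 rose 4 of 33 other members (12.1%, against 4.09% of all probe sets), and 0 fell (3.23% of all probe sets). Ddit3 rose by 2.19 ± 0.32 log2 units per unit of Hspa5 (SE, limma adjusted p = 0.000541, r = 0.80, rho = 0.77), Atf4 by 1.69 ± 0.37 (adjusted p = 0.00863, r = 0.66), Vldlr by 1.99 ± 0.61 (adjusted p = 0.0437) and Creld2, an ER disulfide isomerase whose promoter with its ERSE is printed above, by 0.97 ± 0.24 (adjusted p = 0.0174). The transcription factors Atf3 (r = -0.12, adjusted p = 0.709) and Atf5 (r = -0.12, adjusted p = 0.738) did not pass, and of 12 other ER chaperones only Creld2 did. The other holders of an ERSE did not pass and ranged widely: Pdia6 had r = 0.50 (adjusted p = 0.0533), Syvn1 0.32, Hsp90b1 0.15, Calr -0.02, Canx -0.03 and Dnajc3 -0.21. Leaving out the 2 arrays farthest in Hspa5 gave r = 0.72 for Ddit3 and r = 0.55 for Atf4. Without the Cdca7l culture 1(3) of 129 females alone, 1 member passed, Ddit3. Without the vector culture 1(3) of 129 females 8 passed, and without the Cdca7l culture 2(3) of 129 females or the vector culture 2.1(1) of B6 females 7 did. The call of Vldlr was lost under 26 of 48 alternatives, 18 of them the removal of a single array. With a random replicate block neither Creld2 nor Vldlr passed. The slope of Creld2 turned to -0.73 with a fixed replicate block, while those of Ddit3 and Atf4 kept their sign and passed.

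With Asns rose 9 of 33 other members (27.3%, against 18.3% of all probe sets), and 2 fell (6.06%, against 11% of all probe sets). The rising members were the ATF4 targets Trib3, Chac1, Vldlr and Phgdh, the chaperones Pdia6, Dnajb11 and Manf, the degradation factor Edem1 and Xbp1. Trib3 rose by 1.77 ± 0.25 log2 units per unit of Asns (SE, limma adjusted p = 1.42e-05, r = 0.79, rho = 0.75), Chac1 by 1.17 ± 0.22 (adjusted p = 0.000293, r = 0.70) and Vldlr by 0.82 ± 0.16 (adjusted p = 0.000365, r = 0.69). Of the members with the C/EBP and ATF core, Trib3, Chac1 and Vldlr thus rose with Asns, while Atf3 (r = -0.22, adjusted p = 0.359) and Herpud1 (r = 0.33, adjusted p = 0.158) did not pass. Phgdh, Pdia6, Dnajb11, Edem1 and Xbp1 rose without a match to the core in their windows. Atf4 mRNA itself did not pass (0.24 ± 0.14, adjusted p = 0.201, r = 0.30). Ddit4 fell by 0.35 ± 0.09 per unit of Asns (adjusted p = 0.00264, r = -0.63), and Sel1l fell by 0.12 ± 0.04 (adjusted p = 0.0338, r = -0.59). The call of Sel1l was lost under 10 of 48 alternatives, among them both replicate blocks, the mean of all probe sets and 6 single-array removals. The ATF4 and CHOP targets Sesn2 (r = -0.27), Psat1 (r = -0.21) and Ppp1r15a (r = -0.13) did not pass.

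Single cultures were high for Asns, Trib3 and Chac1 together, but not for all ATF4 and CHOP targets, whose pairs had a median correlation of -0.06. In B6 females with Cdca7l, clone 6(3) read 13.0 for Asns, 9.01 for Trib3 and 7.46 for Chac1, while the other 3 clones read 10.7 to 11.0, 4.66 to 5.44 and 6.24 to 6.33. With vector, clone 6(3) had the highest Asns of its group, 12.6, but read 6.63 for Trib3 and 6.95 for Chac1. The highest Trib3 and Chac1 of that vector group, 9.71 and 9.78, were those of clone 2.1(1). In B6 males, clone 4(3) read 12.8 for Asns and 8.41 for Trib3 with Cdca7l, and 12.5 and 7.78 with vector, the highest of either group. In 129 females, clones 4(1) and 2(1) read 13.0 and 13.4 for Asns and 9.84 and 10.3 for Trib3 with Cdca7l, and 12.8 and 13.1 for Asns and 8.31 and 9.94 for Trib3 with vector. Without those clones of 129 females 4 members still passed on Asns, namely Pdia6, Trib3, Chac1 and Vldlr. With a fixed replicate block, which leaves only the differences between Cdca7l and vector cultures of 1 clone, 0 passed, while the slopes kept their sign: that of Trib3 was 1.52 ± 0.48 (limma adjusted p = 0.144) and that of Chac1 0.97 ± 0.34 (adjusted p = 0.182).

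**Figure D3:**
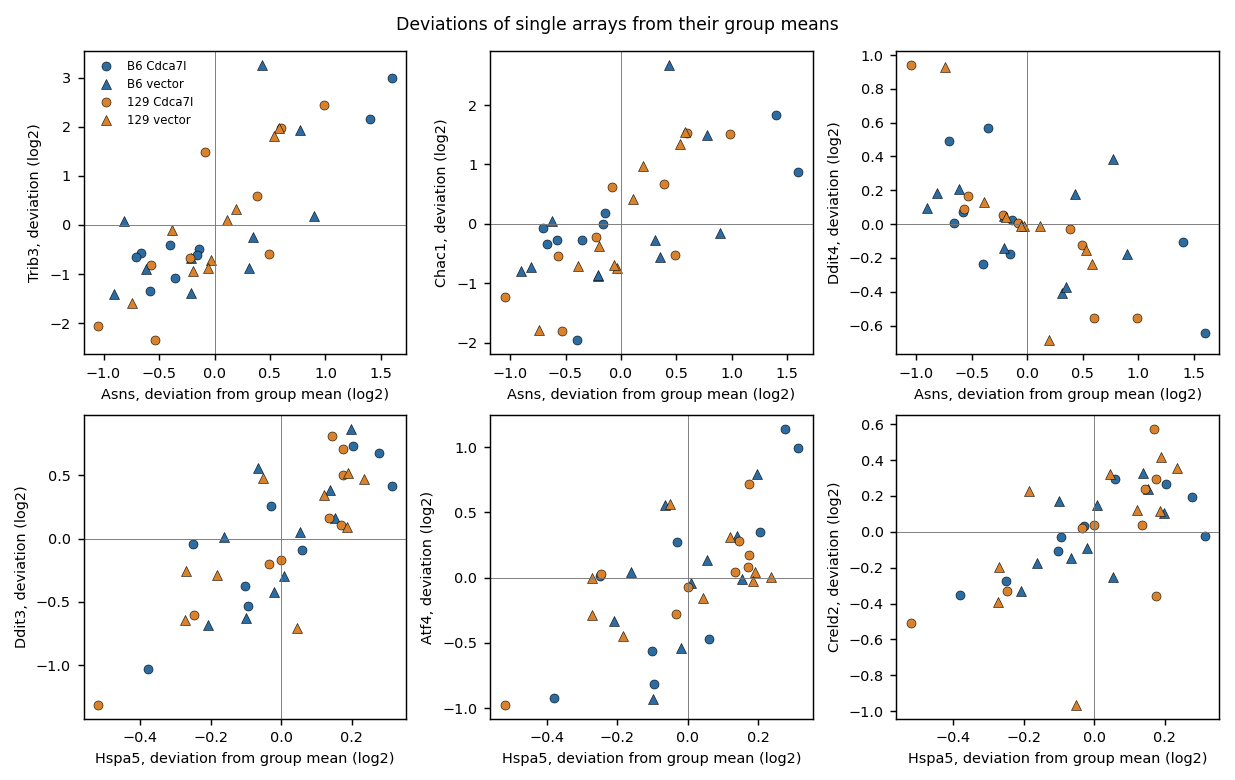
Deviation of each of the 37 arrays from its group mean on the log2 scale, with Asns (top) or Hspa5 (bottom) on the horizontal axis and another member on the vertical axis; colours give the strain and shapes the plasmid. Trib3 and Chac1 rise with Asns and Ddit4 falls, while Ddit3, Atf4 and Creld2 rise with Hspa5.

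Among all member pairs, Dnajb11 and Manf, both secretory pathway factors, were the closest (r = 0.90 over 37 arrays), followed by Trib3 and Chac1 (r = 0.88), Edem1 and Vldlr (r = 0.87), Atf4 and Ddit3 (r = 0.84) and the mTORC1 inhibitors Ddit4 and Sesn2 (r = 0.83). The lowest was that of Xbp1 and Ddit4 (r = -0.70), and Ddit4 also ran against Hsp90b1 (r = -0.67). The map of deviations shows these lines as bands, and Edem1 was also close to Trib3 (r = 0.75).

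**Figure D4:**
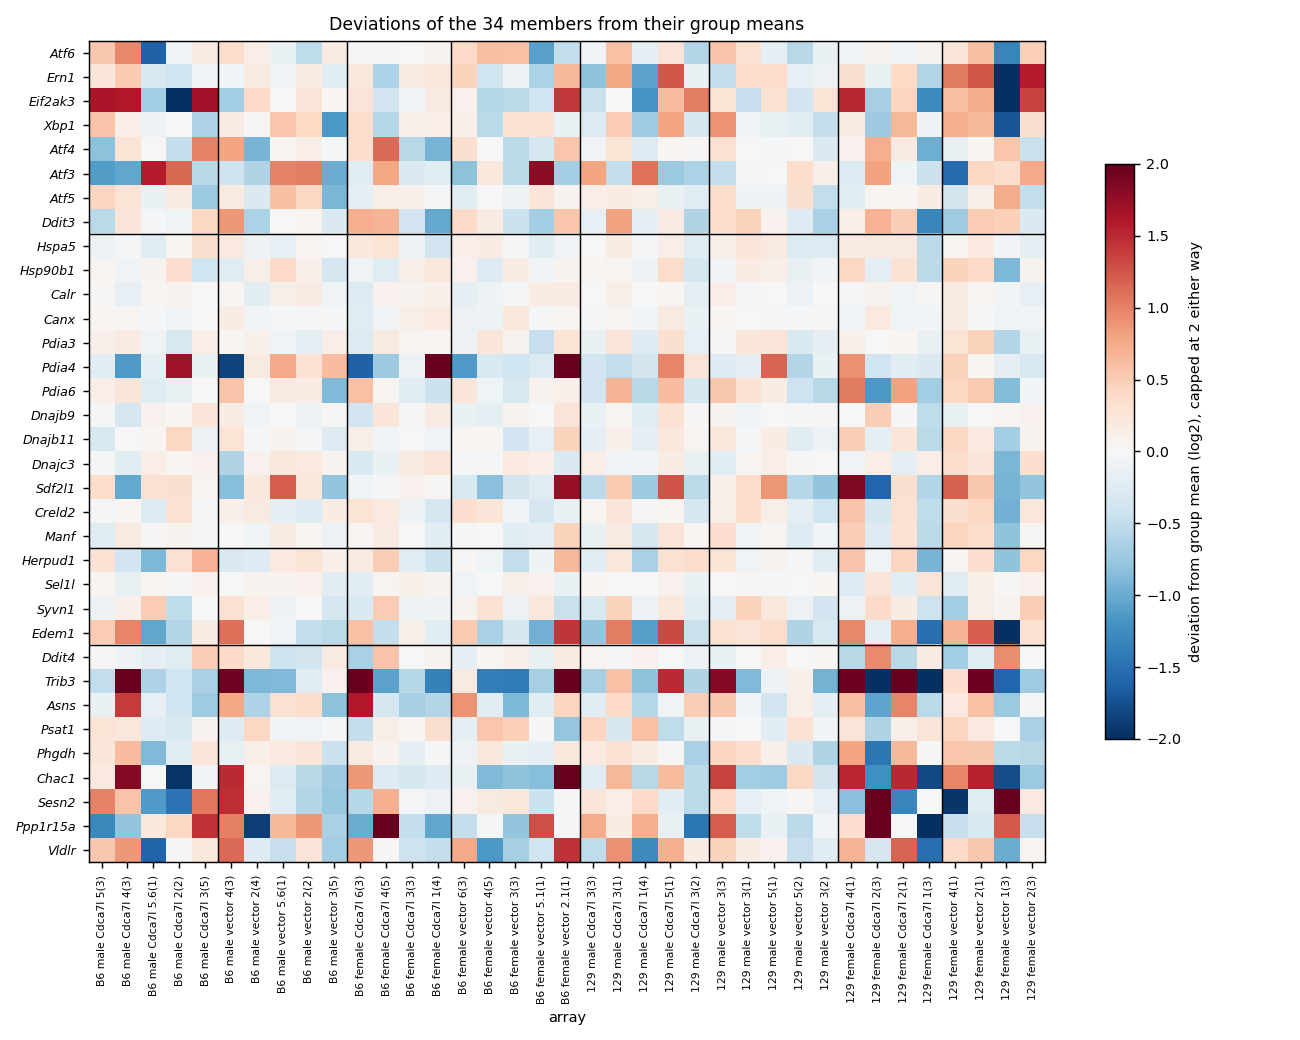
Deviation of each of the 34 members (rows, ordered by role) from its group mean on each of the 37 arrays (columns, grouped by strain, sex and plasmid), on the log2 scale, with red above and blue below the group mean and colours capped at 2 either way. Trib3, Asns and Chac1 are red together in B6 male clone 4(3), in B6 female clone 6(3) with Cdca7l and in 129 female clones 4(1) and 2(1) with Cdca7l.

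The other pathway lists differed in their slopes on Asns, for which 18.3% of all probe sets rose and 11% fell. Of 35 other ATF4 targets, 21 rose with it and 1 fell, and their median slope was 0.37, against 0.03 over all probe sets. They include Iars (0.47 ± 0.05, limma adjusted p = 9.03e-07), the mitochondrial folate enzyme Mthfd1l (1.11 ± 0.13), the translation inhibitor Eif4ebp1 (1.15 ± 0.14) and the threonyl tRNA synthetase Tars (0.60 ± 0.09). Of 37 other ER folding and entry genes, 17 rose and 0 fell, among them Fkbp11 (1.54 ± 0.16) and Pdia5 (2.17 ± 0.29). Of 22 other degradation genes 3 rose and 6 fell. Of 16 other stress sensors and regulators 3 rose and 4 fell, those that fell being Tmbim6 (-0.23 ± 0.04), Eif2ak1 (-0.52 ± 0.11), Map3k5 (-0.68 ± 0.16) and Ppp1r15b (-0.40 ± 0.10). Of 17 cytosolic heat shock genes 7 rose and 0 fell, among them Hspd1 (0.32 ± 0.05) and Hspb1 (1.27 ± 0.21). On Hspa5, where 4.09% of all probe sets rose and 3.23% fell, 1 of the 35 ATF4 targets rose, Tars (1.44 ± 0.37), and 2 of the 37 folding genes, Ero1l (0.97 ± 0.27) and Ssr1 (0.69 ± 0.22), while Dnajc1 fell (-0.73 ± 0.22, limma adjusted p = 0.0411).

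The genes outside the list whose deviations were most like those of Asns over the 37 arrays were Capn2 (r = 0.95), Bop1 (r = 0.91), Eef1akmt1 (r = 0.91), Pum3 (r = 0.90) and Rala (r = 0.89). Those most like Hspa5 were Jmjd6 (r = 0.82), 2410006H16Rik (r = 0.80), Lyar (r = 0.80), Strap (r = 0.79) and Brix1 (r = 0.79). Of the 10 astrocyte markers, 8 fell with Asns and 0 rose, and 2 fell with Hspa5. Their mean level moved against both Asns and Trib3: its deviation had r = -0.67 with that of Asns and r = -0.80 with that of Trib3. That of the G2/M genes had r = 0.43 with Asns and 0.47 with Trib3, that of neuronal markers 0.56 with Asns and 0.34 with Trib3, and that of oligodendrocyte lineage markers -0.52 with Asns and -0.48 with Trib3. With Hspa5, astrocyte markers had r = -0.47 and microglial markers -0.42. For G2/M genes and Ddit3 the correlation was near 0 (r = 0.01). What part these markers have in the covariation was not tested.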

How the data were processed

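GCRMA and Partek 6.5 are named in the submitters' processing notes. The values the authors deposited for the 37 arrays are log2 expression levels, used here without another transformation, and no source used here says if all arrays were normalized in 1 run. Gene names came from the platform annotation, matched by Entrez ID to RefSeq (GRCm38.p6). Only probe sets with a value over the table's median, 3.189, on at least 4 arrays were tested. A linear model with a mean per group and 29 residual degrees of freedom was fitted to all arrays with limma 3.58.1 (R 4.3.3). Benjamini-Hochberg adjustment ran over 25579 probe sets, with a threshold of 0.05. For the slopes, the value of Hspa5 or Asns was added to the model. Arrays hold no count depth, so their number limits the precision. The main p-values measure the spread between arrays taken as independent, although the estimated correlation within a clone number was 0.409. The main probe sets of Asns, Phgdh, Trib3, Vldlr and Calr are of a kind (suffix x) that may also bind related transcripts.

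The members and lists were chosen with earlier results of these data known. The rule for naming took all 34 members, Cdca7l, up to 4 members past the threshold by smallest p from each other list, and the 5 genes most like Hspa5 and Asns. Clone numbers were used to check pairing: deviations of Cdca7l and vector arrays of 1 clone correlated at 0.43 to 0.77 in B6 females, 0.38 to 0.57 in B6 males, 0.06 to 0.72 in 129 females and -0.09 to 0.62 in 129 males, so that every pair exceeded 0.1 in B6 only. The fit was tested on simulated data. Alternatives were other filters, a trended and robust prior, quantile normalization, array weights, replicate blocks, the mean of all probe sets, and arrays left out.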

Additional observations from a re-analysis of the deposited data

Results flagged for a closer look

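In 29 of 272 combinations of a member and a group, 1 array lay far from the others of its group by Dixon's criterion, which chance alone meets in about 1 of 20 groups. The vector culture 1(3) of 129 females, whose upper quartile was low, accounts for 5 of them: Ern1 at 5.46, Xbp1 at 8.61, Dnajc3 at 11.3 and Creld2 at 10.2 were below the rest, and Ppp1r15a at 12.2 above. Cultures high in Trib3 and Chac1 account for others. B6 female Cdca7l 6(3) read 13.0 for Asns and 7.46 for Chac1, with Calr at 13.9 and Sel1l at 12.8 below the rest. B6 male Cdca7l 4(3) read 8.41 for Trib3 and 12.8 for Asns, with Sdf2l1 low at 4.76. B6 female vector 2.1(1) read 9.78 for Chac1, 8.21 for Sdf2l1 and 6.51 for Pdia4.

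B6 female Cdca7l 4(5) was high for Ppp1r15a at 12.5 and Atf3 at 10.6 and low for Ern1 at 9.39. B6 male vector 4(3) was low for Pdia4 at 3.14 and Dnajc3 at 12.1 and high for Canx at 13.6. In 129 males with vector, culture 3(3) was high for Xbp1 at 11.8 and Ppp1r15a at 11.0, and 5(1) for Pdia4 at 5.37. In 129 females, Hspa5 was low at 13.2 on Cdca7l 1(3), Canx was high at 13.7 on Cdca7l 2(3) and at 13.6 on vector 4(1), and Pdia4 was high at 5.34 on Cdca7l 4(1). Sel1l was low at 12.8 on B6 male vector 3(5).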

How the results depend on the processing

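The count of members that passed between the strains, 6, became 3 without the filter, 20 with array weights (which had not converged), 3 with a random replicate block, 10 without the arrays 129 female vector 1(3) and B6 female vector 5.1(1), 0 without 129 female clones 4(1) and 2(1) and 2 without 129 male clones 3(1) and 5(1), the last 2 chosen after seeing the data. It ran from 3 to 11 when 1 array was left out: 3 without 129 female 4(1) or 2(1) with Cdca7l, 129 female vector 2(1), B6 female 3(3) with either plasmid, or 129 male vector 3(3), and 11 without 129 female 1(3) with either plasmid. Between the sexes, 0 became 1 with a trended and robust prior and 7 with array weights (0 to 1 with 1 array left out). The strain difference in males minus that in females had 0, 6 with array weights and 0 to 1 with 1 array left out. Positive slopes on Hspa5 numbered 4, 7 with the mean of all probe sets, 2 without 129 female clones 4(1) and 2(1), and 1 to 8 with 1 array left out. Positive slopes on Asns numbered 9, 5 with array weights, 0 with a fixed replicate block and 4 without those clones. The 15 other ATF4 targets lower in B6 became 8 with a random replicate block, 3 without those female clones and 8 without the male clones; the other targets rising with Asns numbered 15 to 23. Of single values, 6 reversed: Dnajc3 for Cdca7l in 129 females (-0.15 with array weights, -0.069 without the 2 arrays that stand apart, and -0.069 to 0.35 with 1 array left out), Calr in B6 females (0.013 with array weights), Psat1 in B6 females (-0.064 with a fixed replicate block) and Creld2 on Hspa5 (-0.73 with a fixed replicate block). The cause was not tested. Cdca7l comparisons had 0 members under every setting run; the averaged Asns difference was -0.26 ± 0.15 with a fixed replicate block, which cannot be fitted for strain or sex. All probe sets had a median strain difference of -0.03 after quantile normalization, and higher calls were 58% of calls, 52.3% after quantile normalization.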
